A study of Homo sapiens with 16 samples.

Results

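The 31 genes described here encode the core of human nucleotide excision repair: the proteins that find a damaged stretch of DNA, open it, cut it on both sides and, in transcribed genes, are called in by a stalled RNA polymerase. They were picked by name, as a textbook list of the pathway's factors, and all 31 were found among the 60448 gene identifiers of the expression table. Values of 30 of them were high enough to test. The exception, GTF2H4, was listed at between 0 and 0.118 FPKM (counted fragments scaled by exon length and library total) in every library. It shares 79.0% of its exon bases with VARS2 on the same strand, so reads of the 2 genes cannot be told apart there.

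Nucleotide excision repair removes lesions that bend the double helix, among them ultraviolet photoproducts and the intrastrand crosslinks that the drug cisplatin makes between neighbouring purines. In the genome-wide branch, XPC with its partners RAD23B and CETN2 senses the distortion, helped by DDB2, which sits with DDB1 on a ubiquitin ligase built from CUL4A or CUL4B and RBX1. In the transcription-coupled branch, ERCC6 (CSB) and ERCC8 (CSA) act at stalled RNA polymerase II together with UVSSA, ELOF1 and others. Both branches hand over to the helicase complex TFIIH, to the verifying protein XPA and to the nucleases ERCC1-ERCC4 (ERCC4 is XPF) and ERCC5 (XPG).

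RNA was measured in A549, an established human lung adenocarcinoma line, and in A549/cDDP, its derivative that is grown in cisplatin. There were 8 groups of 2 libraries: A549 in cisplatin and in its solvent, A549/cDDP in cisplatin and in solvent, and A549/cDDP transfected with the SCAT7 gapmer or with a control gapmer, each again in cisplatin and in solvent. The labels of the knockdown libraries give a gapmer code and not its target; SCAT7 is the target that the study's design text names, and the knockdown values rest on that reading. SCAT7 is a long noncoding RNA, and a gapmer is a short antisense strand that has the bound RNA cleaved by RNase H. Drug or solvent was given for 24 h at a concentration labelled 15 mM, a unit printed as labelled and not checked, and transfected cells (12 pmol of gapmer) were collected at 48 h. All A549/cDDP cells, those in solvent included, came from cultures maintained in cisplatin, so the solvent groups of that line are not drug-naive. Cells were not synchronized. Untransfected cells received no gapmer or transfection reagent, so the control gapmer groups differ from them by both. Nothing in the labels tells whether the replicates of a group came from different cultures; the p-values therefore cover the spread between libraries alone.

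The promoters of XPC and ERCC6 are shown because these 2 genes had the widest range of RNA level over the 8 groups. Each is given 5′ to 3′ on the gene's own strand, from 250 bases before to 50 after the annotated start, from RefSeq on GRCh38.p14. That of XPC (minus strand of chr3:14178552-14178851) carries 1 E2F motif in capitals, and that of ERCC6 (minus strand of chr10:49539072-49539371) 1 NRF1 motif in capitals.
XPC: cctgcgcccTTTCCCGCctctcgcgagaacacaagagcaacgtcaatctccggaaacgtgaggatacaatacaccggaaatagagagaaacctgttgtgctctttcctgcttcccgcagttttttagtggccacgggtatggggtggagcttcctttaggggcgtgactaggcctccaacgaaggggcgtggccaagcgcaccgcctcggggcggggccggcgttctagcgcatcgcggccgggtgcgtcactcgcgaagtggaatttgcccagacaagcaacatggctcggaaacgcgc
ERCC6: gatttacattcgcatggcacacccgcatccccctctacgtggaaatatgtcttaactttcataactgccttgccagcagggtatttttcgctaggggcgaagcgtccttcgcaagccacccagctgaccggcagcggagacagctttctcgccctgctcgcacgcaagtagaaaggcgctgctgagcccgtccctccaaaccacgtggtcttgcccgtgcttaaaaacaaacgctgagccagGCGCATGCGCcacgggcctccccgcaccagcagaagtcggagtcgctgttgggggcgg
Of the 31 genes, 29 had a RefSeq promoter, 45 promoters in all. The E2F motif (TTTCGCGC, TTTCCCGC or TTTGGCGC, either strand) stood in 2 of 29, XPC and CUL4A, against 3.30% of all 27305 genes with a promoter and 5.43% of the 11429 tested genes with one. The NRF1 motif (the run in capitals in ERCC6) stood in 1 of 29 (ERCC6), against 1.52% of all and 2.57% of the tested genes. The ETS motif (CCGGAAG, either strand) stood in 13 of 29, against 12.2% of all genes and 21.4% of the tested genes. The GC box (GGGCGG) stood in 24 of 29, against 75.3% of the tested genes, and CCAAT in 12 of 29, against 42.6%. A match is only a run of letters in this window.

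Levels in this paragraph are group means in FPKM, scaled by exon length. The exon length of a gene depends on the transcripts annotated for it, so comparisons between genes are approximate. In A549 in solvent, the pathway's RNAs ran from 247 FPKM for DDB1 down to 1.78 FPKM for ERCC6, among the tested genes. The chromatin protein HMGN1 (215), RAD23B (178), the elongation factor TCEA1 (166) and the deubiquitinase USP7 (141) followed DDB1. Members of one role lay far apart: of the nucleases ERCC1 had 67.9, ERCC4 15.7 and ERCC5 3.07 FPKM, and of the transcription-coupled branch ELOF1 had 46.9, ERCC8 12.0 and UVSSA 6.01 FPKM. ERCC5 shares 63.2% of its exon bases with other genes on its own strand, so its level is uncertain. In A549 in cisplatin DDB1 was still first, and DDB2 and XPC stood at ranks 2 and 3, against ranks 7 and 10 in solvent.

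Across the 8 groups, ERCC6 had the widest range, a ratio of 4.25 between its highest group mean (SCAT7 gapmer in solvent) and its lowest (A549 in solvent). XPC followed with 4.16 and DDB2 with 3.65, then CETN2 (2.34), STK19 (2.33) and ERCC5 (2.20). ERCC8, the partner of ERCC6 in the transcription-coupled branch, had one of 1.26 and passed the test in none of the comparisons below. RAD23B (1.24) and CUL4A (1.26) had the lowest ratios, and the tested genes not named here lay between CUL4A and ERCC5.

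**Figure D1:**
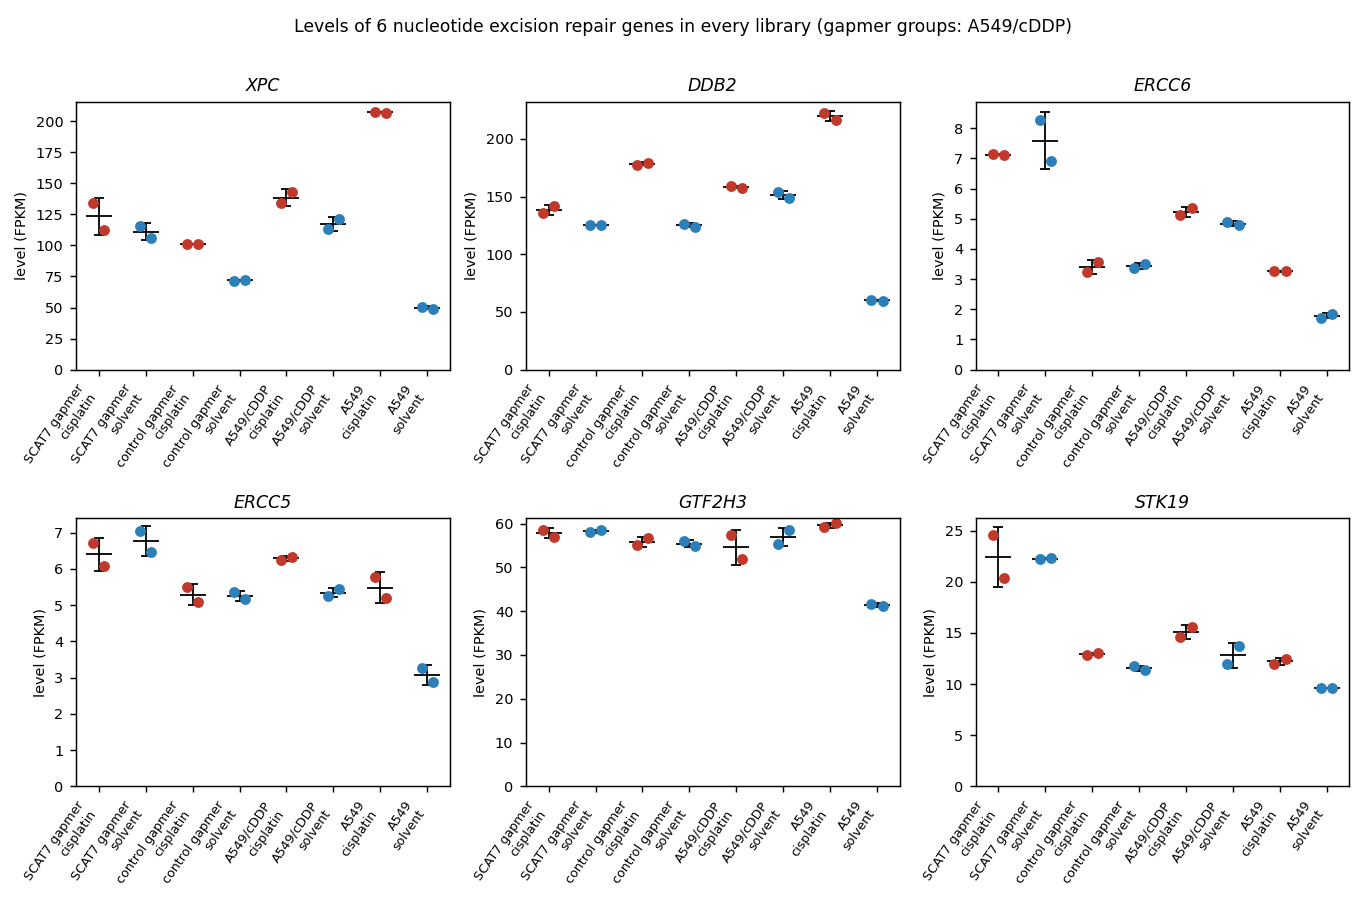
Expression (FPKM, linear axis from 0) of XPC, DDB2, ERCC6, ERCC5, GTF2H3 and STK19 in the 8 groups; points are single libraries, bars group means, whiskers the SD of 2 libraries, red cisplatin and blue solvent. XPC and DDB2 in A549 stand at 207 ± 0.484 and 219.7 ± 4.31 FPKM in cisplatin, against 49.8 ± 1.26 and 60.2 ± 0.333 in solvent, while ERCC6 and STK19 are highest with the SCAT7 gapmer.

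Sequencing depth was recovered from the values at 31300000 to 43010000 fragments per library, lowest with the SCAT7 gapmer (31300000 to 33370000) and highest with the control gapmer (42220000 to 43010000). About 8234 to 36582 reads per library lay behind XPC and 10311 to 39715 behind DDB2. Replicates correlated at r = 0.991 to 0.996 over the tested genes, and the largest gap of any member was that of XPA between the SCAT7 gapmer libraries in cisplatin, 0.54 on the log2 scale. ELF3-AS1, the gene of SCAT7, stood at 0.594 and 0.837 FPKM with the SCAT7 gapmer in solvent, against 2.56 and 3.57 with the control gapmer. In cisplatin it stood at 1.69 and 2.18 FPKM, against 3.73 and 3.23. It was lower with its gapmer in both (log2 change −1.54, adjusted p = 7.5e-06, and −0.71, adjusted p = 0.00355). Summed markers of lung epithelium (8 genes) were 5201 to 8429 FPKM in every library, with the surfactant gene SFTPB at 0.06 or less throughout and the lung factor NKX2-1 at 0 in A549; leukocyte and endothelial markers summed to at most 2.13 FPKM. Fibroblast markers (3 genes, nearly all COL1A1) summed to 36.8 to 52.8 FPKM in untransfected A549/cDDP, against 7.56 to 9.82 in A549, with the other two under 0.5 FPKM; the part of this in the results was not tested.

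What cisplatin did to the pathway's RNA in the parental line was asked first. In A549 cisplatin raised both sensors of the genome-wide branch far above the rest: XPC stood at 207 and 207 FPKM in cisplatin, against 50.6 and 48.9 in solvent. DDB2 stood at 223 and 217 FPKM in cisplatin, against 60.4 and 60.0 in solvent. Every cisplatin library lay above every solvent library for both genes, with log2 changes, here and below on the log2(FPKM + 0.5) scale and with SE, of 2.05 ± 0.069 for XPC and 1.86 ± 0.031 for DDB2 (limma adjusted p = 1.09e-10 and 5.02e-13). In bulk RNA, fewer cells of a type and less RNA per cell cannot be told apart. XPC shares 30.4% of its exon bases with genes on the opposite strand, the highest of them LSM3 at a mean of 18.1 FPKM, and no strand-marking step is named, so reads of the 2 strands cannot be told apart there.

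The nuclease ERCC5 followed, at 5.79 and 5.19 FPKM in cisplatin against 3.26 and 2.89 in solvent (0.74 ± 0.083, adjusted p = 6.41e-06). ERCC6, which remodels the stalled polymerase, rose by 0.72 and the TFIIH core subunit GTF2H3 by 0.52. On the other side, CUL4B stood at 30.8 and 30.99 FPKM in cisplatin against 40.2 and 42.0 in solvent (−0.40 ± 0.05, adjusted p = 1.71e-05). RAD23B, which stabilizes XPC, stood at 142 and 144 against 176 and 179 (−0.31 ± 0.036, adjusted p = 8.57e-06). CCNH, the cyclin of the TFIIH kinase, stood at 27.1 and 28.7 against 32.8 and 33.4 (−0.24 ± 0.064, adjusted p = 0.0059). The groups did not overlap for any of these 6 genes, but the same held for 27 of the 30 tested members. Such counts of separate groups, here and below, were not made over all tested genes. They are therefore not read as a result about the pathway. The 3 decreases were each smaller than 0.5 on the log2 scale. Without replicate 1 of A549 in cisplatin, CCNH was at −0.20 with an adjusted p of 0.0519. ERCC5 shares 63.2% of its exon bases with BIVM-ERCC5 and BIVM on its own strand, and BIVM averaged 9.75 FPKM, so its values are uncertain.

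By role, 3 of 8 recognition genes rose (XPC, DDB2, DDB1) and 3 fell (CUL4B, RAD23B, RBX1). Of the 6 tested TFIIH core genes 4 rose and none fell: GTF2H3, GTF2H5 (0.37), GTF2H1 (0.22) and the helicase ERCC3 (0.21). All 4 verification and incision genes rose: beside ERCC5, XPA by 0.39, ERCC1 by 0.39 and ERCC4 by 0.20. ERCC1 shares 28.6% of its exon bases with CD3EAP (25.2 FPKM on average) on the opposite strand, and ERCC4 25.7% of its own with a gene at 0.240 FPKM. The kinase module split into CDK7, which rose by 0.18, CCNH, which fell, and its assembly factor MNAT1, at 0.034 with an adjusted p of 0.646. In the transcription-coupled branch ERCC6, STK19 (0.33) and XAB2 (0.11) rose, while HMGN1 (−0.21) and USP7 (−0.19) fell.

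In all, 21 of 30 genes passed, 15 higher and 6 lower, beside 60.4% of all 17198 tested genes (33.3% higher, 27.1% lower). Their median change was 0.12, against 0.057 for all tested genes, so the share and the median lay near those of the transcriptome. XPC and DDB2 were the 2 members that changed by 2-fold or more. With median ratio scaling of the libraries the split was 10 higher and 9 lower, with quantile normalization 11 and 8; 9 of the 15 and all 6 decreases passed under all 3 scalings, and XPA, ERCC4, XAB2, CDK7, DDB1 and GTF2H5 did not. Leaving out 1 library at a time ended the calls of XPA, ERCC4, GTF2H5, CDK7, CCNH, RBX1, XAB2 and HMGN1 in at least 1 fit (adjusted p up to 0.324), and XAB2 was at 0.065 without replicate 2 in cisplatin.

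Genes acting next to the pathway were counted by list. Of 21 genes that refill the gap after excision, 3 rose and 16 fell, with a list median of −0.52 against 0.057 for all tested genes. Many of them also serve DNA replication, so changes of this list, here and below, are not read as specific to repair. The largest decreases were those of POLE2 (−2.05), a polymerase epsilon subunit, and of the clamp loader genes RFC3 (−1.73) and RFC4 (−1.54). The sliding clamp PCNA went the other way, at 460.1 and 464 FPKM in cisplatin against 282 and 278 in solvent. Of 17 tested genes listed as partners and regulators of recognition, 4 rose and 7 fell (median −0.097), PARP1 among those that fell (−0.45). The stress genes GADD45A and TRIAP1 rose by 2.59 and 1.88. Both are counted in this list here and below, and their changes are not read as changes of damage recognition. Of 16 COP9 signalosome and CUL4 genes 4 rose and 4 fell (median −0.0044), DTL, a substrate receptor of CUL4, among those that fell (−1.51). Of 11 tested RNA polymerase II subunits 4 rose and 3 fell (median −0.027), with POLR2H at 0.86 and POLR2A at 0.83. The damage response genes CDKN1A, a cell cycle inhibitor, and MDM2, a ubiquitin ligase, rose by 4.26 and 3.80.

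In A549/cDDP the same drug moved none of the 30 genes past the threshold, beside 8.1% of all tested genes (3.55% higher, 4.55% lower). XPC came nearest, at 134 and 143 FPKM in cisplatin against 113 and 121 in solvent (0.24 ± 0.069, limma adjusted p = 0.0537). Its groups did not overlap, as for 16 of the 30 genes. XPC passed under either of the other scalings (median ratio, quantile). DDB2 stood at 159 and 158 FPKM in cisplatin against 154 and 149 in solvent (0.062, 95% interval −0.0056 to 0.13). At an unadjusted p under 0.05, 7 of the 30 passed. The share of all tested genes at that level was not counted, so this number is not read as a response of the pathway. ERCC1, among the 7, had a limma adjusted p of 0.209. Of the lists, gap filling had 7 genes lower and 0 higher (median −0.15, against 0.0029 for all tested genes), recognition partners had PARP1 alone lower, and the CUL4 list had DTL alone lower (−0.39). CDKN1A rose by 0.30, while MDM2 was at 0.074 (adjusted p = 0.572).

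The difference between these responses was tested directly, as the cisplatin change in A549/cDDP minus that in A549. It was −1.80 ± 0.098 for XPC (adjusted p = 2.62e-08), from 0.24 in A549/cDDP and 2.05 in A549. It was −1.80 ± 0.044 for DDB2 (adjusted p = 4.4e-11), from 0.062 in A549/cDDP and 1.86 in A549. For ERCC6 it was −0.62 ± 0.12 (adjusted p = 0.00121), with 5.11 and 5.35 FPKM in cisplatin against 4.90 and 4.79 in solvent in A549/cDDP, and 3.26 and 3.25 in cisplatin against 1.72 and 1.85 in solvent in A549. The smaller response in A549/cDDP went with solvent levels of all 3 genes that were above those of A549 in solvent, given below; these comparisons share libraries.

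The difference was positive for CUL4B (0.34 ± 0.071, adjusted p = 0.00189), RBX1 (0.24 ± 0.071, adjusted p = 0.0142), HMGN1 (0.23 ± 0.074, adjusted p = 0.0216) and RAD23B (0.21). RBX1, the RING subunit of the ligase, had 34.8 and 32.4 FPKM in cisplatin against 32.2 and 30.9 in solvent in A549/cDDP, and 33.5 and 34.1 in cisplatin against 38.6 and 36.8 in solvent in A549. HMGN1 had 182 and 177 FPKM in cisplatin against 176 and 176 in solvent in A549/cDDP, and 178 and 194 against 216 and 213 in A549. These 4 genes fell in A549 and did not pass in A549/cDDP. CUL4B was at −0.067 in A549/cDDP against −0.40 in A549, and RAD23B at −0.11 against −0.31. RBX1 and HMGN1 have processed pseudogenes that can take some of their reads. RBX1 no longer passed without replicate 1 of A549/cDDP in cisplatin (0.19, adjusted p = 0.0614), without replicate 1 of A549 in solvent (adjusted p = 0.0592) or without replicate 2 of A549/cDDP in solvent (adjusted p = 0.0556). HMGN1 did not pass in 5 of the 8 fits with 1 library left out, and was at 0.17 without replicate 1 of A549 in cisplatin (adjusted p = 0.0969). DDB1 (−0.13) lost its call in 7 of these 8 fits (adjusted p up to 0.118), and GTF2H5 in 1.

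Over the pathway 13 of 30 genes passed this test, 4 higher and 9 lower, beside 47% of all tested genes (21.5% higher, 25.6% lower). In the recognition group 3 were higher and 3 lower, in the TFIIH core none and 3 (GTF2H3 −0.58, GTF2H5 −0.47, ERCC3 −0.22), in the incision group none and 2 (ERCC5 −0.53, ERCC1 −0.28), in the kinase module none in either direction, and in the transcription-coupled branch 1 and 1. The split was 7 and 7 under median ratio scaling, 5 and 7 under quantile normalization; RAD23B, CUL4B, RBX1 and HMGN1 higher and XPC, DDB2, ERCC1, ERCC5, ERCC6 and GTF2H3 lower passed in all 3. Of the gap filling genes 14 were higher and 3 lower (median 0.40, against −0.058 for all tested genes), of the recognition partners 5 and 4 (median 0.11), of the CUL4 list 4 and 3 (median 0.036) and of the polymerase subunits 1 and 3 (median −0.017).

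**Figure D2:**
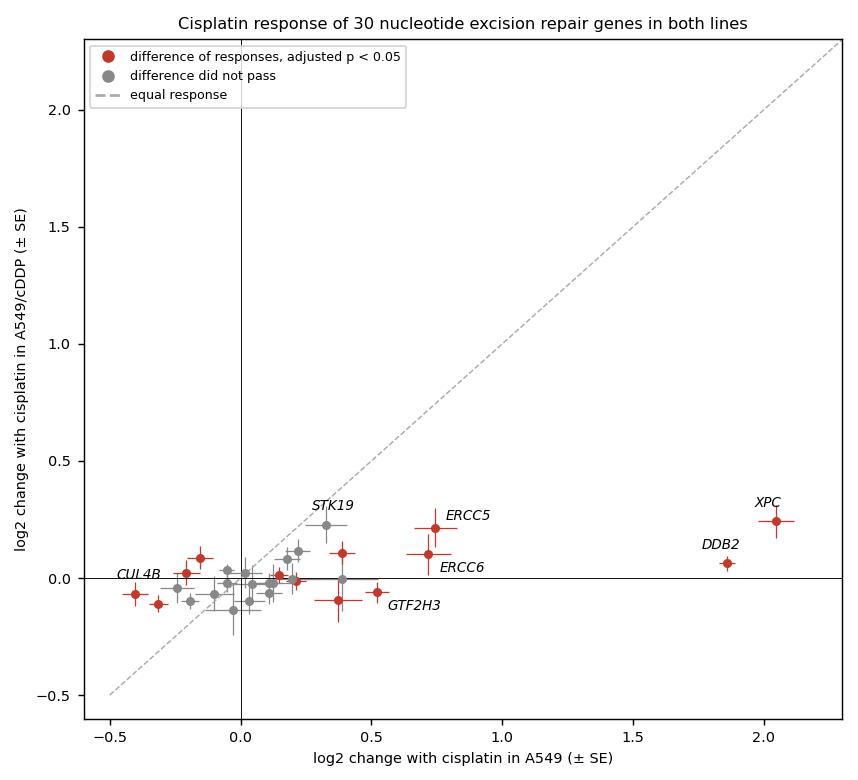
Change with cisplatin (log2, ± SE, 2 libraries a group) in A549 on the x axis and in A549/cDDP on the y axis, 1 point for each of the 30 tested genes; red points passed the test of the difference between the lines. XPC (0.24 in A549/cDDP, 2.05 in A549) and DDB2 (0.062 and 1.86) lie far to the right of the other genes and close to 0 on the y axis.

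Levels in the 2 lines were then set side by side. In solvent, A549/cDDP had the higher level of DDB2, XPC and ERCC6: DDB2 stood at 154 and 149 FPKM in A549/cDDP against 60.4 and 60.0 in A549 (1.33 ± 0.031, limma adjusted p = 6.74e-12). XPC stood at 113 and 121 FPKM against 50.6 and 48.9 (1.23 ± 0.069, adjusted p = 9.25e-09), and ERCC6 at 4.90 and 4.79 against 1.72 and 1.85 (1.23 ± 0.086, adjusted p = 6.97e-08). Each of the 3 was more than 2 times as high in every A549/cDDP library as in any A549 library, and in cisplatin the order of the lines was turned for DDB2 and XPC.

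Lower in A549/cDDP in solvent was CETN2, the centrin that binds XPC, at 29.1 and 28.4 FPKM against 43.9 and 41.8 in A549 (−0.57 ± 0.082, adjusted p = 5.1e-05). CUL4B stood at 29.7 and 28.3 against 40.2 and 42.0 (−0.50 ± 0.05, adjusted p = 2.11e-06), and the elongation factor ELOF1 at 37.8 and 37.9 against 48.5 and 45.3 (−0.31 ± 0.065, adjusted p = 0.0011). The lines did not overlap for these 3 genes either, as for 26 of the 30 tested members in all. CUL4A, the close relative of CUL4B in the same ligase, was higher in A549/cDDP (0.24).

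In this comparison 23 of 30 genes passed, 14 higher and 9 lower, beside 70.2% of all tested genes (42.7% higher, 27.5% lower), and the median was 0.16, against 0.15 for all tested genes. The median of all tested genes moved to −0.0064 with median ratio scaling, under which 10 members were higher and 13 lower and the calls of all genes were 47.4% higher, against 60.8% without it; with quantile normalization 13 members were higher and 8 lower. With median ratio scaling DDB2 was at 1.14, XPC at 1.04, ERCC6 at 1.07, CETN2 at −0.75 and CUL4B at −0.68. Higher under all 3 scalings were XPC, DDB2, ERCC4, ERCC5, ERCC6, UVSSA, GTF2H1, GTF2H3, XAB2 and STK19, and lower were RAD23B, CETN2, MNAT1, CUL4B, RBX1, ELOF1, USP7 and HMGN1. ERCC2, the other TFIIH helicase, was called higher (0.18) but turned to −0.0042 with median ratio scaling, where it did not pass (adjusted p = 0.947). Its call and those of GTF2H5 and MNAT1 were lost in at least 1 fit with 1 library left out (adjusted p up to 0.0972). By role the recognition genes were 3 higher and 5 lower, the TFIIH core 4 and none, the kinase module 1 and 1, the incision genes 2 and none, and the transcription-coupled genes 4 and 3.

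In cisplatin ERCC6 was again higher in A549/cDDP, at 5.11 and 5.35 FPKM against 3.26 and 3.25 in A549 (0.61 ± 0.086, limma adjusted p = 4.62e-05). UVSSA, which brings USP7 to the stalled polymerase, stood at 7.56 and 8.46 against 5.59 and 5.55 (0.49 ± 0.074, adjusted p = 8.14e-05), and CUL4A at 66.8 and 66.4 against 53.2 and 52.9 (0.33 ± 0.028, adjusted p = 5.09e-07). CETN2 was again lower, at 30.1 and 26.7 against 44.8 and 48.8 (−0.71 ± 0.082, adjusted p = 7.28e-06). XPC stood at 134 and 143 FPKM in A549/cDDP against 207 and 207 in A549 (−0.58 ± 0.069, adjusted p = 1.03e-05), and DDB2 at 159 and 158 against 223 and 217 (−0.47 ± 0.031, adjusted p = 4.57e-08). For these 6 genes too the lines did not overlap, as for 24 of the 30 tested members in all.

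Here 20 of 30 passed, 8 higher and 12 lower, beside 66.5% of all tested genes (37% higher, 29.5% lower). The recognition genes were 1 higher and 5 lower, the TFIIH core 1 and 2, the kinase module 1 and 1, the incision genes 1 and 2, and the transcription-coupled genes 4 and 2. The lower incision genes were XPA (−0.42) and ERCC1 (−0.39), the higher one was ERCC4 (0.29), the XPF partner of ERCC1. Median ratio scaling gave 5 higher and 13 lower, and quantile normalization 10 and 11. The calls of XPA, GTF2H3, CCNH, CUL4B, XAB2 and STK19 were lost in at least 1 fit with 1 library left out (adjusted p up to 0.298). CCNH (0.20) was at 0.10 without replicate 1 of A549/cDDP in cisplatin, and GTF2H3 (−0.13) at −0.20 without it and −0.054 without replicate 2.

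The gap filling genes were mostly lower in A549/cDDP in solvent, 18 lower and 2 higher with a median of −0.69 (RFC3 −1.62, POLE2 −1.50, POLD1 −1.42). In cisplatin they were 11 lower and 4 higher with a median of −0.18, against 0.081 for all tested genes, and PCNA (−1.39) and the ligase LIG1 (−1.18) were among the lower ones. Of the recognition partners 5 were higher and 9 lower in solvent (median −0.13; GADD45A 1.79), and 4 and 10 in cisplatin (median −0.34; TRIAP1 −1.09). Of the CUL4 list 7 were higher and 8 lower in solvent (median −0.22), and 6 and 6 in cisplatin (median 0.03). RNA polymerase II subunits were 1 higher and 8 lower in solvent (median −0.35), and 0 and 10 in cisplatin (median −0.47). CDKN1A and MDM2 were higher in A549/cDDP in solvent (2.77 and 2.32) and lower in cisplatin (−1.19 and −1.40).

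After transfection, the cisplatin response of A549/cDDP was tested again, once with each gapmer. With the control gapmer DDB2 stood at 178 and 179 FPKM in cisplatin against 127 and 124 in solvent (0.51 ± 0.031, limma adjusted p = 5.23e-06). XPC stood at 101 and 101 FPKM in cisplatin against 71.4 and 72.2 in solvent (0.49 ± 0.069, adjusted p = 0.00275). Both sensors were higher in each cisplatin library than in either solvent library, and the groups did not overlap for 16 of the 30 tested members. The sensors were the 2 members that passed of 30, beside 2.53% of all tested genes (1.67% higher). They passed in every fit with 1 library left out and under both other scalings. Outside the pathway, 1 of 21 gap filling genes passed: PCNA rose by 0.23, TRIAP1 by 0.42, CDKN1A by 0.74 and MDM2 by 0.63, while the COP9 and CUL4 list had none and the polymerase subunits 1 called. The medians of the gap filling list and of all tested genes were −0.012 and 0.02.

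With the SCAT7 gapmer, cisplatin gave DDB2 136 and 142 FPKM against 126 and 126 in solvent (0.14 ± 0.031, limma adjusted p = 0.0328). RBX1 stood at 33.5 and 31.9 FPKM in cisplatin against 27.9 and 28.1 in solvent (0.22 ± 0.05, adjusted p = 0.037). These 2 of 30 passed, beside 4.18% of all tested genes (2.92% higher), but each was lost in 3 of 4 fits with 1 library left out (adjusted p up to 0.161). No member passed without replicate 1 or without replicate 2 in solvent, 1 passed without replicate 1 in cisplatin and 5 without replicate 2 in cisplatin, and with median ratio scaling none passed. XPC stood at 134 and 113 FPKM against 116 and 106 (0.15, adjusted p = 0.23); the replicate 2 value in cisplatin lies within the spread of the solvent libraries. CDKN1A was at 0.086 and MDM2 at −0.07, and neither passed (adjusted p = 0.0862 and 0.568). Of the lists, gap filling had 3 genes higher and none lower (median 0.14, against −0.0053 for all tested genes), recognition partners 2 and 1, the CUL4 list 3 and none, and the polymerase subunits none in either direction.

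The 2 responses differed for DDB2. The cisplatin change with the SCAT7 gapmer minus that with the control gapmer was −0.37 ± 0.044 (limma adjusted p = 0.003), from 0.14 with the SCAT7 gapmer and 0.51 with the control gapmer. DDB2 was the one member that passed, beside 0.93% of all tested genes (0.442% lower). XPC had a difference of −0.34 ± 0.098 that did not pass (adjusted p = 0.145, 95% interval −0.56 to −0.13), and it passed at −0.47 when replicate 1 of the SCAT7 gapmer in cisplatin was left out. Without replicate 2 of that group HMGN1 passed, at 0.31, in place of 0.22 with all libraries (adjusted p = 0.201). CDKN1A and MDM2 had differences of −0.66 and −0.70, both past the threshold. When only these 8 libraries were fitted, no member passed (DDB2 adjusted p = 0.0915).

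Whether transfection with the control gapmer itself altered the response was tested as a comparison chosen after the values had been seen. The cisplatin change with the control gapmer minus that without transfection was 0.45 ± 0.044 for DDB2 (limma adjusted p = 0.000613), from 0.51 with the control gapmer and 0.062 without transfection. DDB2 again was the one member that passed, beside 1.88% of all tested genes (1.15% higher). For XPC it was 0.25, which did not pass (adjusted p = 0.251). By the labels' protocols transfected cells also spent longer in culture before collection, and this and the transfection cannot be told apart.

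**Figure D3:**
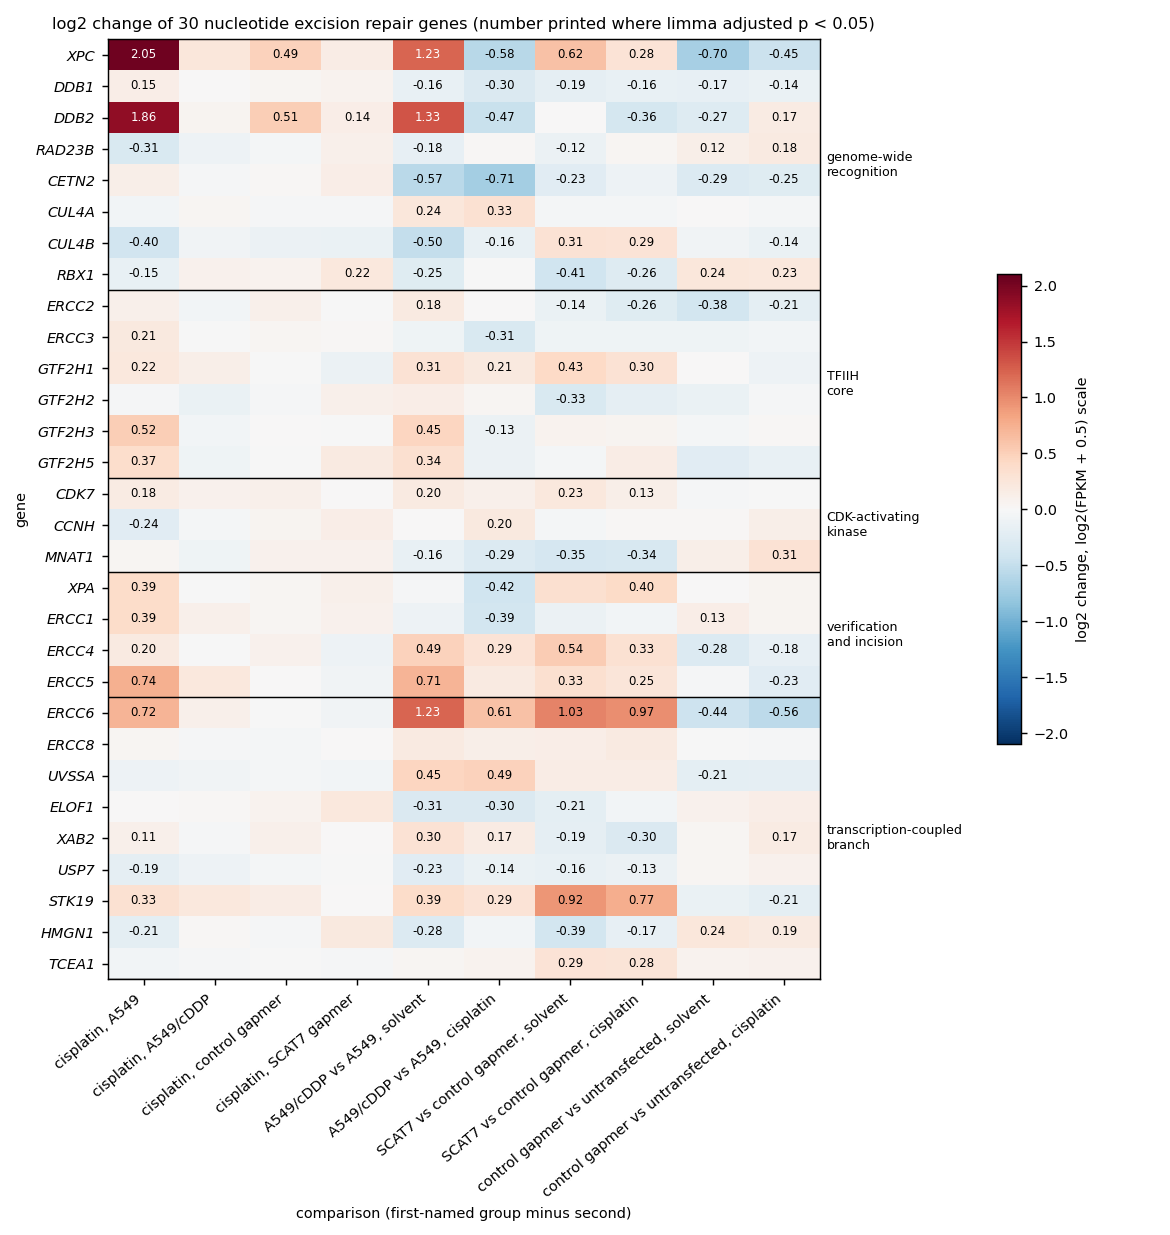
Heat map of log2 change for the 30 tested genes (rows, by role) in 10 comparisons (columns); a number is printed in a cell where the adjusted p is under 0.05. XPC and DDB2 in A549 under cisplatin (2.05 and 1.86) are the strongest cells, and the column for cisplatin in A549/cDDP holds no number.

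The question of the knockdown was what the SCAT7 gapmer did to A549/cDDP cells relative to the control gapmer. In solvent the largest increases among the repair genes were those of ERCC6 and STK19. Both belong to the transcription-coupled branch, in which 3 genes were higher and 4 lower. ERCC6 stood at 8.25 and 6.92 FPKM with the SCAT7 gapmer against 3.36 and 3.51 with the control gapmer (1.03 ± 0.086, limma adjusted p = 8.86e-07). STK19, which positions TFIIH at the stalled polymerase, stood at 22.2 and 22.3 against 11.7 and 11.4 (0.92 ± 0.08, adjusted p = 1.19e-06). XPC stood at 116 and 106 against 71.4 and 72.2 (0.62 ± 0.069, adjusted p = 9.98e-06). The groups were apart for all 3, as for 27 of the 30 tested members, and ERCC6 and STK19 were close to or over doubled. Untransfected A549/cDDP cells in solvent stood at 113 and 121 FPKM for XPC. They stood at 4.90 and 4.79 for ERCC6 and 11.9 and 13.7 for STK19. STK19 shares 24.0% of its exon bases with DXO (7.10 FPKM on average, opposite strand) and C4A (1.86 FPKM, same strand), where reads can be split.

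The largest decreases in solvent were those of RBX1, HMGN1 and MNAT1. RBX1 stood at 27.9 and 28.1 FPKM with the SCAT7 gapmer against 38.7 and 36.1 with the control gapmer (−0.41 ± 0.05, adjusted p = 2.2e-05). HMGN1 stood at 158 and 158 against 208 and 208 (−0.39 ± 0.052, adjusted p = 4.69e-05), and MNAT1 at 16.9 and 18.2 against 22.7 and 22.2 (−0.35 ± 0.058, adjusted p = 0.000275). All were separate from the control gapmer libraries. Untransfected A549/cDDP cells in solvent, against which the SCAT7 gapmer was not tested, had lower RBX1 and HMGN1 than the control gapmer. MNAT1 did not pass in that comparison. Untransfected cells stood at 32.2 and 30.9 FPKM for RBX1, 176 and 176 for HMGN1 and 20.4 and 20.7 for MNAT1. DDB2 did not pass here and stood at 126 and 126 FPKM against 127 and 124 (0.0054, 95% interval −0.063 to 0.074).

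In solvent 20 of 30 genes passed, 9 higher and 11 lower, beside 55.8% of all tested genes (33.2% higher, 22.7% lower); of all calls 59.4% were higher, and 49.2% with median ratio scaling. The members' median was −0.042, against 0.059 for all tested genes. Median ratio scaling gave 9 members higher and 14 lower, quantile normalization 8 and 11. By role the recognition genes were 2 higher and 4 lower, the TFIIH core 1 and 2, the kinase module 1 and 1, the incision genes 2 (ERCC4 0.54, ERCC5 0.33) and none, and the transcription-coupled genes 3 and 4. The calls of ERCC2, RAD23B, CETN2, GTF2H2 and ELOF1 were lost in at least 1 fit with 1 library left out (adjusted p up to 0.31); without replicate 1 of the SCAT7 gapmer in solvent CETN2 moved to −0.11 (−0.15 without replicate 1 of the control gapmer, −0.35 without replicate 2 of the SCAT7 gapmer) and ELOF1 to −0.13, and without replicate 2 GTF2H2, a gene with near-identical copies, moved to −0.19.

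In cisplatin ERCC6 and STK19 again led. ERCC6 stood at 7.14 and 7.11 FPKM with the SCAT7 gapmer against 3.23 and 3.58 with the control gapmer (0.97 ± 0.086, limma adjusted p = 2.49e-06), and STK19 at 24.5 and 20.4 against 12.8 and 13.0 (0.77 ± 0.08, adjusted p = 8.52e-06). XPA stood at 25.7 and 17.5 against 16.6 and 15.3 (0.40 ± 0.14, adjusted p = 0.0276), a difference that rests on replicate 1 of the SCAT7 gapmer: without it the change was 0.13 (adjusted p = 0.32), and without replicate 2 it was 0.67. XPC stood at 134 and 113 against 101 and 101 (0.28), and at 0.16 without the same replicate 1 (adjusted p = 0.05, at the threshold).

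DDB2 was the largest decrease in cisplatin, at 136 and 142 FPKM with the SCAT7 gapmer against 178 and 179 with the control gapmer (−0.36 ± 0.031, adjusted p = 1.77e-06). MNAT1 stood at 19.3 and 18.3 against 23.5 and 24.4 (−0.34 ± 0.058, adjusted p = 0.000422). XAB2, a binding partner of XPA, stood at 17.1 and 17.3 against 20.9 and 21.9 (−0.30 ± 0.044, adjusted p = 0.000119). Groups did not overlap for these 3, as for 28 of the 30 tested members. In cisplatin, then, XPC was higher and DDB2 lower with the SCAT7 gapmer than with the control gapmer. Untransfected A549/cDDP cells in cisplatin stood at 134 and 143 FPKM for XPC and 159 and 158 for DDB2. The SCAT7 gapmer was not tested against them.

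Of 30 genes 18 passed in cisplatin, 10 higher and 8 lower, beside 49.7% of all tested genes (28.6% higher, 21.1% lower). The recognition genes were 2 higher and 3 lower, the TFIIH core 1 and 1, the kinase module 1 and 1, the incision genes 3 and none, and the transcription-coupled genes 3 and 3. Median ratio scaling gave 8 higher and 10 lower, quantile normalization 8 and 9, and 8 in each direction passed in all 3. HMGN1 (−0.17) was at −0.26 without replicate 1 and −0.075 without replicate 2 of the SCAT7 gapmer in cisplatin, and CDK7 (0.13) at 0.07 without that replicate 2. The calls of XPA, ERCC5, CDK7, USP7 and HMGN1 were lost in at least 1 fit with 1 library left out (adjusted p up to 0.32).

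**Figure D4:**
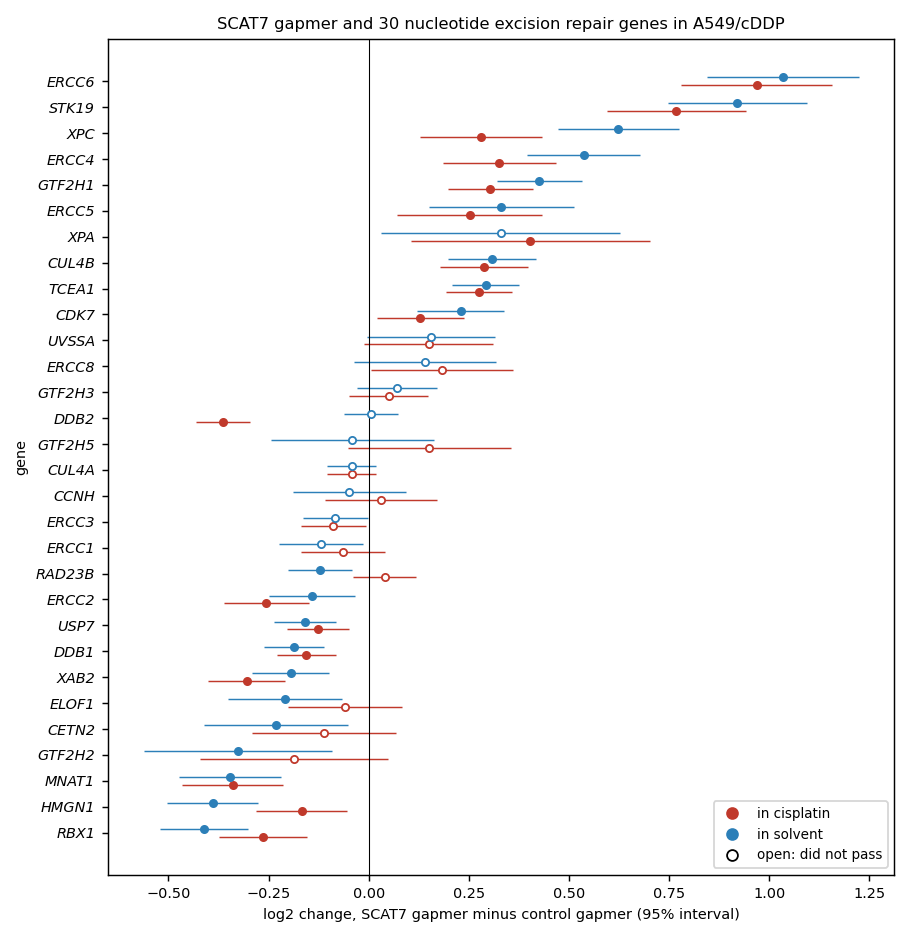
Log2 change with the SCAT7 gapmer relative to the control gapmer in A549/cDDP, with its 95% interval, for the 30 tested genes; red is in cisplatin, blue in solvent, and open points did not pass. ERCC6 (0.97 in cisplatin, 1.03 in solvent) and STK19 (0.77 and 0.92) are highest in both, and DDB2 is below 0 in cisplatin (−0.36) and near 0 in solvent (0.0054).

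The gap filling genes were lower with the SCAT7 gapmer, 19 lower and 1 higher in cisplatin (median −0.80, against 0.042 for all tested genes) and 18 and 2 in solvent (median −0.96). POLE2 (−1.90), RFC3 (−1.57) and RFC4 (−1.51) had the largest decreases in solvent. Of the recognition partners 9 were higher and 4 lower in solvent (median 0.19), with GADD45A at 1.62, GADD45B at 1.05 and PARP1 at −0.75; in cisplatin it was 7 and 3 (median 0.089). The CUL4 list had 1 higher and 6 lower in solvent (median −0.069; DTL −1.34) and 1 and 5 in cisplatin (median −0.04). No polymerase subunit was higher in either, and 8 were lower in solvent (median −0.19) and 6 in cisplatin (median −0.14). CDKN1A was higher with the SCAT7 gapmer (0.57 in cisplatin, 1.22 in solvent), as was MDM2 (0.70 and 1.40).

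The control gapmer was also set against no transfection, since the knockdown is read against it. In solvent XPC stood at 71.4 and 72.2 FPKM with the control gapmer against 113 and 121 without transfection (−0.70 ± 0.069, limma adjusted p = 8.26e-06). ERCC6 stood at 3.36 and 3.51 against 4.90 and 4.79 (−0.44 ± 0.086, adjusted p = 0.00154), and ERCC2 at 19.8 and 20.8 against 25.6 and 27.5 (−0.38 ± 0.049, adjusted p = 7.04e-05). These 3 were lower in both transfected libraries. The comparison shares its control gapmer libraries with that of the SCAT7 gapmer, where XPC stood at 116 and 106 FPKM and ERCC6 at 8.25 and 6.92 FPKM in solvent; cells with the SCAT7 gapmer were not tested against untransfected cells.

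Higher with the control gapmer in solvent were RBX1, at 38.7 and 36.1 FPKM against 32.2 and 30.9 without transfection (0.24 ± 0.05, adjusted p = 0.0023), and HMGN1, at 208 and 208 against 176 and 176 (0.24 ± 0.052, adjusted p = 0.00345). ERCC1 stood at 68.2 and 69.5 against 65.4 and 60.2 (0.13 ± 0.048, adjusted p = 0.047) and was at 0.073 and not called (adjusted p = 0.344) without replicate 2 of untransfected cells. ERCC4, UVSSA, RAD23B and CETN2 also lost their calls in at least 1 fit with 1 library left out. The groups did not overlap for RBX1, HMGN1 and, by a narrow gap, ERCC1, as for 21 of the 30 tested members. In all 12 of 30 genes passed, 4 higher and 8 lower, beside 39.7% of all tested genes (20.7% higher, 19% lower), with 3 and 8 under median ratio scaling and 2 and 9 under quantile normalization. The recognition genes were 2 higher and 4 lower, the TFIIH core none and 1, the kinase module none in either direction, the incision genes 1 and 1, and the transcription-coupled genes 1 and 2.

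In cisplatin MNAT1 stood at 23.5 and 24.4 FPKM with the control gapmer against 20.5 and 18.0 without transfection (0.31 ± 0.058, limma adjusted p = 0.00103), RBX1 at 40.5 and 38.2 against 34.8 and 32.4 (0.23 ± 0.05, adjusted p = 0.00322) and HMGN1 at 203 and 206 against 182 and 177 (0.19 ± 0.052, adjusted p = 0.0114). ERCC6 was lower, at 3.23 and 3.58 against 5.11 and 5.35 (−0.56 ± 0.086, adjusted p = 0.000255), as were XPC, at 101 and 101 against 134 and 143 (−0.45 ± 0.069, adjusted p = 0.000229), and CETN2, at 23.4 and 24.1 against 30.1 and 26.7 (−0.25 ± 0.082, adjusted p = 0.0263). No libraries of the 2 groups overlapped for these genes, as for 23 of the 30 tested members. DDB2 was higher, at 178 and 179 against 159 and 158 (0.17), whereas in solvent it was lower (−0.27). CETN2 was at −0.17 and no longer called (adjusted p = 0.201) without replicate 1 of untransfected cells, and HMGN1 at 0.17 (adjusted p = 0.0694) without replicate 2 of the same cells.

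Of 30 genes 15 passed, 6 higher and 9 lower, beside 42.4% of all tested genes (23% higher, 19.4% lower), with 6 and 11 under median ratio scaling and 6 and 13 under quantile normalization. Without replicate 2 of the control gapmer in cisplatin 9 genes passed, and ERCC4, ERCC5, CETN2, CUL4B, XAB2, STK19 and HMGN1 lost their calls in at least 1 such fit (adjusted p up to 0.293). The recognition genes were 3 higher and 4 lower, the TFIIH core none and 1, the kinase module 1 and none, the incision genes none and 2, and the transcription-coupled genes 2 and 2. The gap filling genes were higher with the control gapmer, 19 higher and 2 lower in cisplatin (median 0.84, against 0.016 for all tested genes) and 17 and 2 in solvent (median 0.73). Recognition partners were 6 higher and 3 lower in cisplatin (median 0.087) and 5 and 2 in solvent (median 0.12). The CUL4 list had 6 and 3 in cisplatin (median 0.10) and 6 and 1 in solvent (median 0.053), and the polymerase subunits 4 and 2 in cisplatin (median 0.052) and 4 and 3 in solvent (median −0.026). CDKN1A was lower with the control gapmer (−0.66 in cisplatin, −1.11 in solvent), as was MDM2 (−0.23 and −0.79).

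The balance between partners of one complex is given as ratios of FPKM, mean ± SD of 2 libraries, as a description. The size of a ratio also depends on the exon length taken for each gene, so only its change between groups is read. DDB2 over DDB1 was 0.804 ± 0.0088 in A549 in cisplatin against 0.244 ± 0.0052 in solvent, and 0.713 ± 0.02 against 0.688 ± 0.025 in A549/cDDP. With the SCAT7 gapmer it was 0.765 ± 0.0077 in cisplatin against 0.729 ± 0.014 in solvent, and with the control gapmer 0.884 ± 0.013 against 0.638 ± 0.0097. A549 in solvent thus had the lowest DDB2 share and the control gapmer in cisplatin the highest.

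XPC over RAD23B was 1.45 ± 0.021 in A549 in cisplatin, the one group whose mean ratio was above 1, against 0.280 ± 0.011 in solvent. In A549/cDDP it was 0.951 ± 0.076 in cisplatin, with replicate 2 at 1.01, against 0.744 ± 0.042 in solvent. With the SCAT7 gapmer it was 0.724 ± 0.06 against 0.707 ± 0.045, and with the control gapmer 0.611 ± 0.0085 against 0.420 ± 0.011. CUL4A over CUL4B was 2.41 ± 0.055 in A549/cDDP in cisplatin and 2.24 ± 0.059 in solvent, against 1.72 ± 0.014 and 1.34 ± 0.047 in A549. ERCC6 over ERCC8 was 0.506 ± 0.09 with the SCAT7 gapmer in solvent, against 0.252 ± 0.012 with the control gapmer and 0.352 ± 0.02 without transfection. DDB2 over XPC was 1.77 ± 0.011 and 1.75 ± 0.039 with the control gapmer in cisplatin and in solvent, above the other groups, which lay at 1.06 ± 0.018 to 1.30 ± 0.094.

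**Figure D5:**
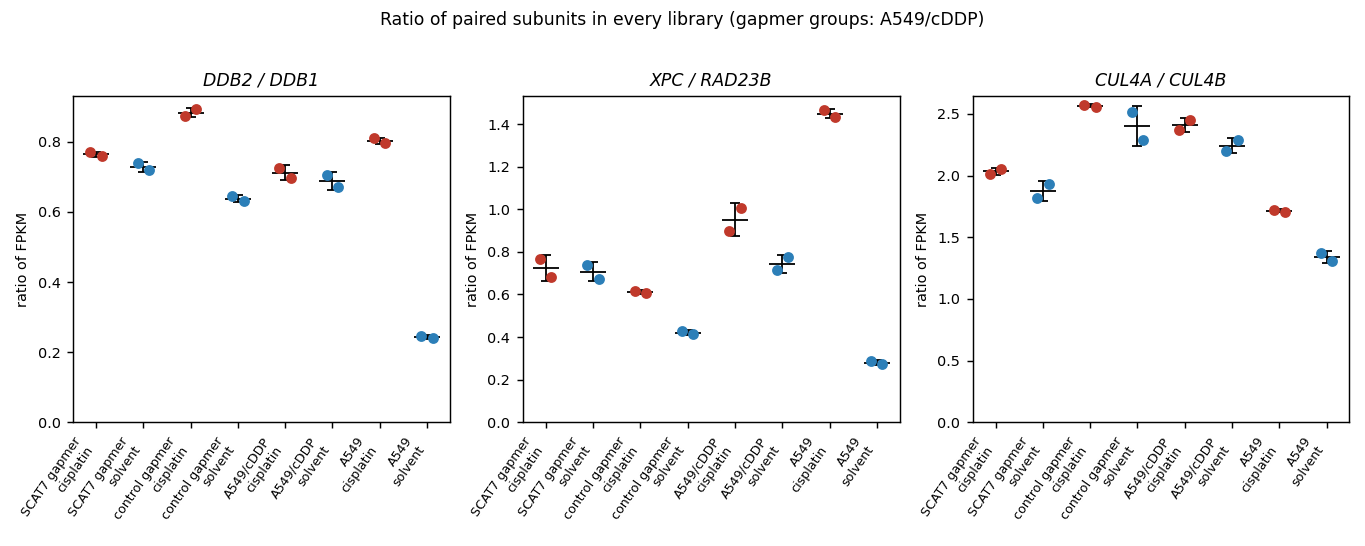
Ratios of FPKM within 1 library for DDB2 over DDB1, XPC over RAD23B and CUL4A over CUL4B in the 8 groups; points are libraries, bars means and whiskers the SD of 2 libraries, red cisplatin and blue solvent. A549 in solvent has the lowest ratio in each panel (0.244 ± 0.0052, 0.280 ± 0.011 and 1.34 ± 0.047).

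The genes whose pattern over the 8 group means was most like that of XPC were ACER2 (Pearson r = 0.997 over 8 means), TRIP10 (0.996), SUSD6 (0.994) and PLK3 (0.994). For DDB2 they included APLP1 (0.986), MRPL39 (0.981) and TSPAN1 (0.973), so the 2 sensors had different nearest neighbours. CDKN1A correlated with XPC at 0.985 and with DDB2 at 0.910, and XPC with DDB2 at 0.883. Among the members themselves the closest pair was ERCC4 and ERCC6 (0.983). These are descriptions over 8 means that share libraries and lines.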

How the data were processed

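Poly(A)-selected RNA of 16 libraries was measured, in 8 groups of 2. The values the authors deposited are FPKM, 1 column per library for 60448 Ensembl gene identifiers; all 16 columns were used. Reads were aligned with TopHat2 and counted with HTSeq 0.6.1 on hg38, per the submitters' processing notes; the strand setting and the annotation release are not given in the sources used here. Symbols and exon models came from GENCODE release 29 (56868 identifiers had a model) and promoters from RefSeq. The depth was recovered from low values, as multiples of the value of 1 read: 73.66 to 79.006% of values under 6 reads were whole numbers at a tolerance of 0.02, so read numbers of single genes are approximate and no count test was run.

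The 17198 genes that averaged 0.5 FPKM or more were fitted as log2(FPKM + 0.5) with limma 3.58.1 in R 4.3.3: 1 mean for each of the 8 groups, a trended prior, 8 residual degrees of freedom, two-sided tests, Benjamini-Hochberg adjustment over all tested genes and a threshold of 0.05. "Rose", "fell", "higher" and "lower" mean past that threshold. The pseudocount understates changes of low genes such as ERCC6. The fit was tested on simulated data. Alternatives were a pseudocount of 1, no minimum level, median ratio scaling, quantile normalization, a replicate block, a fit of the compared libraries alone and leaving out each library.

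The members, the gene lists (gap filling, recognition partners and regulators, COP9 signalosome and CUL4 partners, RNA polymerase II subunits, the damage response genes CDKN1A and MDM2, cell type markers) and the tests were chosen with earlier results of these data known. Library values are given for the 3 largest called rises and the 3 largest called falls in each comparison. The comparison of the cisplatin response between control gapmer and untransfected cells, and the ratio of DDB2 to XPC, were added after the values had been seen, and a few further values are given where a result turns on them. Some items of these lists and searches are not reported here.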

Additional observations from a re-analysis of the deposited data

Results flagged for a closer look

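For 13 genes of the pathway the response to cisplatin differed between A549/cDDP and A549 by the limma test of the difference itself (A549/cDDP minus A549, log2 scale). XPC (−1.80) and DDB2 (−1.80) had by far the largest differences, both with a smaller response in A549/cDDP. Smaller responses in A549/cDDP were also found for ERCC6 (−0.62), GTF2H3 (−0.58), ERCC5 (−0.53), GTF2H5 (−0.47), ERCC1 (−0.28), ERCC3 (−0.22) and DDB1 (−0.13, adjusted p = 0.0361), all genes that rose in A549. The difference for DDB1 did not pass in 7 of 8 fits with 1 library left out, nor with median ratio scaling or quantile normalization. The difference was positive for CUL4B (0.34), RBX1 (0.24), HMGN1 (0.23) and RAD23B (0.21), which fell in A549.

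DDB2 was flagged in a further pair of tests of a difference. Its response to cisplatin was smaller with the SCAT7 gapmer than with the control gapmer (−0.37, adjusted p = 0.003), and larger with the control gapmer than without transfection (0.45, adjusted p = 0.000613). The difference between gapmers did not pass when only the libraries compared were fitted. Both differences share the control gapmer libraries, in which DDB2 stood at 178 and 179 FPKM in cisplatin and 127 and 124 in solvent.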

How the results depend on the processing

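Over all members and comparisons, 3 values reversed, all for A549/cDDP against A549 in solvent with median ratio scaling: ERCC2 moved to −0.0042 (adjusted p = 0.947), CCNH to −0.18 (adjusted p = 0.0227) and TCEA1 to −0.15 (adjusted p = 0.00527). The number of members called moved by more than 1.5 times in few settings, and the cause was not tested. For cisplatin in A549/cDDP it was 1 with median ratio scaling and 1 with quantile normalization, against 0. For cisplatin with the SCAT7 gapmer it was 1 with no minimum level, 0 with median ratio scaling, 1 with quantile normalization and 0 when only the compared libraries were fitted, against 2. For the SCAT7 gapmer in cisplatin it was 11 when only the compared libraries were fitted, against 18, and for the difference of cisplatin responses between gapmers 0, against 1. With 1 library left out the counts ranged from 15 to 18 for cisplatin in A549, 0 to 0 in A549/cDDP, 10 to 15 for the difference between lines, 21 to 23 and 17 to 19 for the lines in solvent and in cisplatin, 2 to 2 and 0 to 5 for cisplatin with the control and with the SCAT7 gapmer, 16 to 20 and 14 to 16 for the SCAT7 gapmer in solvent and in cisplatin, 1 to 2 for the difference between gapmers, 8 to 9 and 9 to 14 for the control gapmer against no transfection in solvent and in cisplatin, and 1 to 1 for the added difference. Replicate numbers did not pair the samples: the deviations of same-numbered libraries correlated at −0.187 to 0.119 over 28 pairs of groups. With a replicate block the counts were 21, 0, 14, 24, 21, 2, 2, 20, 19, 1, 11, 12 and 1 over the 13 comparisons, in the same order. The share of all calls that were higher was 53.8% with median ratio scaling, against 66.2% without, for cisplatin with the control gapmer, and 40.8%, against 60.8%, for the added difference; with quantile normalization it was 59.4%, against 69.8%, for cisplatin with the SCAT7 gapmer and 43.9%, against 54.3%, for the control gapmer against no transfection in cisplatin. Of single members' results, 17 gained and 18 lost a call with median ratio scaling, 13 and 16 with quantile normalization, 4 and 4 with the replicate block, and 24 and 112 over the fits with 1 library left out. XPA, GTF2H5 and ERCC5 were the tested members with the fewest reads, and the part of depth in their results was not tested.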
